A study of Saccharomyces cerevisiae with 7 samples.

Results

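Ty1 and Ty2 are the most numerous retrotransposons of budding yeast, Saccharomyces cerevisiae. Here 8 of their reading frames, and the small reading frame YER138W-A beside them, were followed across 7 one-colour Affymetrix arrays. These are 9 of the 5449 S. cerevisiae genes measured. All 9 were listed by systematic name, and each was represented by 1 probe set. The frames were chosen by their signal on these same arrays: most of them stood out when scc2-4, sth1-3 and wild type cells at 25C were compared with wild type cells at 37C. Differences from wild type at 37C are therefore given as a description of these frames, without a test, and support nothing.

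A Ty element resembles a retrovirus without an envelope gene. It is transcribed into one long RNA that serves both as messenger and as the template for reverse transcription. The first frame on that RNA, TYA, encodes Gag, the structural protein of the virus-like particle. The second, TYB, encodes Pol, which is cut into protease, integrase and reverse transcriptase and is made by a ribosomal frameshift as a Gag-Pol fusion. New copies insert mostly upstream of genes transcribed by RNA polymerase III, such as those for tRNA. Transcription of Ty elements is known to depend on chromatin factors, several of which were found as suppressors of Ty insertions.

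To ask how the cohesin loader bears on transcription, next to a nucleosome remodeller, the study set 2 temperature-sensitive mutants against wild type. The scc2-4 cells (MATa) carry an allele of SCC2, a subunit of the cohesin loader, with Pk9-tagged Scc1 marked by TRP1 and 9myc-tagged Sth1 marked by URA3. The sth1-3 cells (MATalpha) carry the sth1-3ts allele of the ATPase of the remodeller RSC, with Pk9-tagged Scc2 marked by TRP1. Wild type cells were strain YK700, which is MATa, GAL and psi+. It carries the auxotrophy alleles ade2-1, trp1-1 and ura3-52, together with leu2-3, 112 and with his3-11, 15, and the canavanine resistance allele can1-100. There were 2 arrays each for scc2-4, sth1-3 and wild type cells kept at 37C for 2 h, and 1 array for wild type cells at 25C. All cells grew in rich medium with 2% glucose. Mating type, tags and markers differ between the strains together with the alleles, so their parts in any difference cannot be told apart. Whether replicates stem from separate cultures is not stated, so the spread between arrays may be technical.

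The arrays divide into a pair of sets that cut across the groups, by the level of the bacterial hybridisation controls added to every sample. These controls averaged 12.3 to 12.6 (log2 signal) on scc2-4 replicate 1, sth1-3 replicate 1 and the wild type 25C array, the 3-array set. They averaged 11.6 to 11.8 on scc2-4 replicate 2, sth1-3 replicate 2 and both wild type 37C arrays, the 4-array set. For 25S ribosomal RNA the 3' probe set lay 3.03 to 4.16 above its 5' probe set in the 3-array set, against 0.30 to 0.69 in the 4-array set. For ACT1, the actin gene, the same difference leaned the other way with overlapping ranges: the 3-array set gave -0.31 to 0.32, whereas 0.21 to 1.60 was seen on the others, including 1.60 and 0.21 on the wild type 37C arrays. The 95th percentile of the fission yeast probe sets on the same array, 9.94 to 10.07, served as background, and 439 to 705 of the 5449 genes lay above it. Wild type cells at 37C belong to the 4-array set alone, and those at 25C to the 3-array set alone, so temperature and array set cannot be told apart in wild type cells.

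All 9 probe sets are marked as shared between several transcripts. A value therefore sums near-identical Ty copies and belongs to no single element, and several probe sets may read the same RNAs. In the R64 gene order YAR009C lies next to YAR010C, and YBL100W-B lies next to YBL100W-A, so these frames form pairs of single elements. YDR261C-D and YDR261W-B come from elements on opposite strands at one site. A tRNA gene is the direct neighbour of YAR010C, YBL005W-A, YBL100W-A, YDR316W-B and YDR261W-B. YER138W-A lies next to YER137C-A, a Gag frame of Ty1.

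The Gag frames were brighter on every mutant array than on either wild type 37C array. YAR010C, a Gag frame of Ty1, measured 12.53 and 12.04 in scc2-4 (log2 signal, replicates 1 and 2 here and below), 12.11 and 12.47 in sth1-3, 10.84 and 9.94 in 37C wild type and 12.33 in 25C wild type. The wild type 37C arrays stood apart from the other arrays, which lay between 12.04 and 12.53. The means were 12.29 ± 0.34 in scc2-4, 12.29 ± 0.25 in sth1-3 and 10.39 ± 0.64 in 37C wild type (SD, n = 2 each).

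YBL100W-A, a Gag frame of Ty2, measured 11.07 and 10.50 in scc2-4, 10.66 and 11.24 in sth1-3, 8.89 and 7.96 in 37C wild type and 10.46 in 25C wild type. It was above background on every array except the wild type 37C pair, and its differences from that pair were 2.36 in scc2-4 and 2.52 in sth1-3. YBL005W-A, another Gag frame of Ty1, was the faintest of the 3. It measured 10.02 and 9.37 in scc2-4, 9.18 and 10.01 in sth1-3, 8.64 and 8.38 in 37C wild type and 10.19 in 25C wild type. The groups did not overlap here either, with differences from wild type at 37C of 1.19 in scc2-4 and 1.09 in sth1-3. Only 1 array of each mutant passed background for YBL005W-A.

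The Gag-Pol frames of Ty1 were lowest on the wild type 37C arrays. YDR261C-D measured 11.67 and 10.09 in scc2-4, 11.20 and 10.35 in sth1-3, 8.19 and 6.80 in 37C wild type and 12.07 in 25C wild type. YDR316W-B measured 11.98 and 9.23 in scc2-4, 11.26 and 10.65 in sth1-3, 8.25 and 7.23 in 37C wild type and 12.03 in 25C wild type. Both had their highest value on the wild type 25C array, and in both the first scc2-4 array was brighter than the second. On the second, YDR316W-B was below background.

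In the Gag-Pol frames of Ty2 the wild type 37C arrays were also the lowest. YDR261W-B measured 11.93 and 9.88 in scc2-4, 11.64 and 11.05 in sth1-3, 8.20 and 7.50 in 37C wild type and 12.11 in 25C wild type. YBL100W-B measured 11.87 and 8.61 in scc2-4, 10.05 and 10.12 in sth1-3, 6.76 and 6.40 in 37C wild type and 10.94 in 25C wild type. The sth1-3 pair of YBL100W-B was the closest pair of mutant arrays among the 8 Ty frames, and its scc2-4 pair was the widest.

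YAR009C, the TYB frame of the Ty1 element that also holds YAR010C, followed another order. It measured 12.45 and 9.99 in scc2-4, 8.91 and 11.13 in sth1-3, 8.53 and 6.82 in 37C wild type and 9.00 in 25C wild type. Besides the wild type 37C pair, it was below background on the wild type 25C array and on sth1-3 replicate 1, where YAR010C measured 12.33 and 12.11. It was the 1 frame of the 8 that was not above background in wild type cells at 25C.

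**Figure D1:**
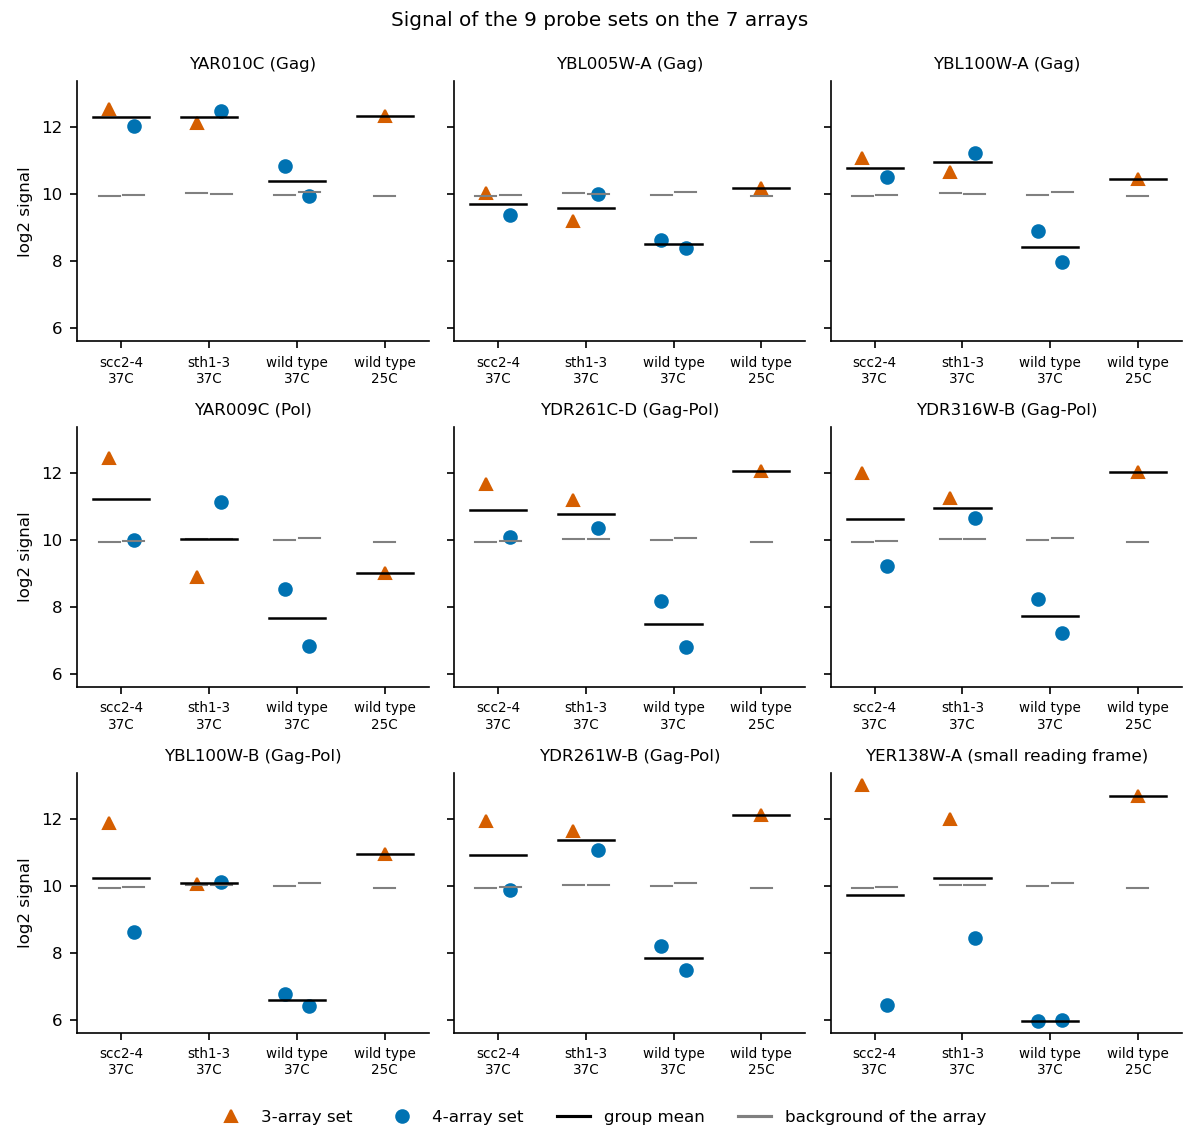
Each panel plots the log2 signal of 1 probe set (y axis) on the 7 arrays, by group. Orange triangles are the 3-array set, blue circles the 4-array set, black bars group means and grey bars the background of each array. In all 8 Ty frames the blue wild type 37C points lie below every mutant point. YER138W-A separates by array set, with 11.99 to 13.00 for triangles and 5.97 to 8.44 for circles. In YDR261C-D, YDR316W-B and YDR261W-B all triangles also lie above all circles.

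Counted over arrays, the 8 Ty frames were above background in 8 cases on scc2-4 replicate 1, 4 on scc2-4 replicate 2, 6 on sth1-3 replicate 1 and 8 on sth1-3 replicate 2. On the wild type 37C arrays the counts were 1 and 0, and on the wild type 25C array 7. The 1 frame seen in wild type at 37C was YAR010C on replicate 1. In bulk RNA, fewer cells with Ty RNA and less Ty RNA per cell cannot be told apart.

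All 8 Ty frames were higher on both scc2-4 arrays than on both wild type 37C arrays, a pattern shown by 15% of all genes. All 8 were also higher on both sth1-3 arrays than on both wild type 37C arrays, which holds for 18% of all genes. These comparisons share their wild type arrays. In all 8 the 4 mutant arrays together lay above both wild type 37C arrays, as in 8.66% of all genes. Over all genes limma called none at an adjusted p under 0.05 in scc2-4 or sth1-3 against wild type at 37C (0% of genes in each). The numbers of genes at an unadjusted p under 0.05 were 68 in scc2-4 and 206 in sth1-3, and eBayes with a trend also called 0. The median difference of the 9 listed frames was 3.05 in scc2-4 and 3.21 in sth1-3, where the median of all genes was -0.01 and 0.03. Without scc2-4 replicate 1 the median in scc2-4 was 2.03, and without scc2-4 replicate 2 it was 4.17.

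Since most frames were not above background on either wild type 37C array, their folds are lower bounds, taken against the higher of the background and the value of the frame on each array. In scc2-4 the bounds ran from at least 1.16-fold for YBL100W-B to at least 2.29-fold for YAR009C. In sth1-3 they ran from at least 1.04-fold for YBL100W-B to at least 2.50-fold for YDR261W-B. YAR010C, above background on 1 of the 2 wild type 37C arrays, was by its measured means 3.73-fold higher in scc2-4 and 3.74-fold higher in sth1-3. The bound was under 1 for YBL005W-A in both mutants, for YAR009C in sth1-3 and for YER138W-A in scc2-4, so no fold is given for these. For YER138W-A in sth1-3 it was at least 1.14-fold, with replicate 2 below background. The scc2-4 bounds of YDR316W-B, YBL100W-B and YDR261W-B rest on replicate 1, since replicate 2 was below background in these frames.

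The 4-array set allowed mutants and wild type at 37C to be compared with the hybridisation controls at one level. Within it all 8 Ty frames lay above the wild type mean in scc2-4 replicate 2, as did 44.8% of all genes. The differences ran from 0.86 (YBL005W-A) to 2.59 (YDR261C-D), with a median of 2.03. The difference exceeded 1 log2 unit in 7 of the 8, as in 0.239% of all genes. All 8 also lay above the wild type mean in sth1-3 replicate 2, as did 43.2% of all genes. They did so by 1.503 (YBL005W-A) to 3.54 (YBL100W-B), with a median of 2.88. Here the difference exceeded 1 in 8 of the 8, as in 0.807% of all genes. Each mutant has 1 array in this set, so these differences have no replicate check, and they belong to the contrasts from which the frames were picked.

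**Figure D2:**
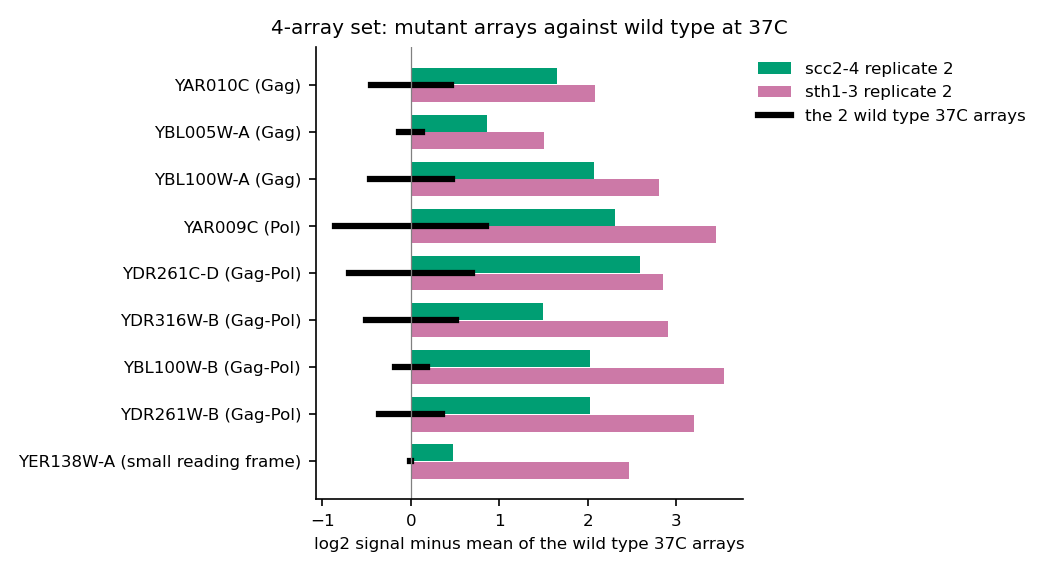
Bars give the log2 signal of scc2-4 replicate 2 (green) and sth1-3 replicate 2 (pink) minus the mean of the wild type 37C arrays, by probe set, all within the 4-array set. Black lines span both wild type arrays around their mean. The bars end beyond the black line in every row, from 0.47 for YER138W-A in scc2-4 to 3.54 for YBL100W-B in sth1-3.

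YER138W-A separated the arrays by set. It measured 13.00 and 6.45 in scc2-4, 11.99 and 8.44 in sth1-3, 5.97 and 5.98 in 37C wild type and 12.67 in 25C wild type. Every array of the 3-array set was more than 3 log2 units above every array of the 4-array set, and background was passed only in the 3-array set. Within the 4-array set YER138W-A was 0.47 above the wild type 37C mean in scc2-4 and 2.46 above it in sth1-3, at levels below background. Its level and the 25S ribosomal RNA difference given above both separate by array set. Within the 3-array set their orders were opposite: sth1-3 replicate 1 had the largest 25S difference (4.16) and the lowest YER138W-A level (11.99). Within the 4-array set sth1-3 replicate 2 was highest in both (0.69 and 8.44). The part of the array set or of the 25S difference in the YER138W-A values was not tested. Among the 8 Ty frames, 3 had all arrays of the 3-array set above all of the 4-array set, as had 21.6% of all genes. These were the Gag-Pol frames YDR261C-D, YDR316W-B and YDR261W-B.

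In the 3-array set the mutant arrays at 37C can be set only beside wild type cells at 25C, so strain and temperature differ together. There the Ty frames of scc2-4 lay at -0.40 to 3.45 relative to wild type at 25C, with a median of 0.07. Those of sth1-3 lay at -1.004 to 0.20, with a median of -0.62 and 1 of 8 higher. The 3.45 belongs to YAR009C in scc2-4, and the next was YBL100W-B at 0.93. The remaining 6 frames of scc2-4 differed from wild type at 25C by at most 0.61 in either direction.

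In wild type cells all 8 Ty frames were lower on both 37C arrays than on the 25C array, as were 50.1% of all genes. The differences of wild type at 37C from wild type at 25C were -1.32 (YAR009C) to -4.57 (YDR261C-D), and YER138W-A differed by -6.70. The median of the 9 frames was -4.26, where that of all genes was -0.17. Adding the array set as a term to the fit brought that median to -2.04, a value that rests on the mutants behaving alike in both sets. Limma called 0% of all genes in this comparison, with 555 at an unadjusted p under 0.05.

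The frames differed in how far the replicates lay apart. In scc2-4, replicate 1 exceeded replicate 2 by 0.48 to 0.66 in the 3 Gag frames, and by 1.58 to 3.26 in the 5 Pol and Gag-Pol frames. The median gap of all genes, regardless of sign, was 0.39. In sth1-3, replicate 1 lay below replicate 2 in all 3 Gag frames, by differences of -0.83 to -0.36. The Pol and Gag-Pol frames of sth1-3 ranged from -2.22 in YAR009C to 0.85 in YDR261C-D. The wild type 37C arrays, both of 1 set, differed by 0.26 to 0.93 in Gag frames and by 0.36 to 1.71 in Pol and Gag-Pol frames, replicate 1 being higher in all 8. Gag and Pol lie at opposite ends of the Ty RNA, and the relation of these gaps to the 3' to 5' differences of the 25S ribosomal RNA and ACT1 was not tested.

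With the wild type 37C mean subtracted, the median of the Gag frames was 2.14 on scc2-4 replicate 1, 1.66 on scc2-4 replicate 2, 1.72 on sth1-3 replicate 1, 2.08 on sth1-3 replicate 2 and 1.95 on the array of wild type at 25C. That of the Pol and Gag-Pol frames was 4.24, 2.03, 3.52, 3.20 and 4.29 on the same arrays in the same order. The Gag medians thus lay between 1.66 and 2.14 on these arrays, and the Pol and Gag-Pol medians between 2.03 and 4.29. All 5 Pol and Gag-Pol frames, YBL005W-A and YBL100W-A were below background on both wild type 37C arrays. The medians are therefore differences of measured signals and do not show that the roles changed by unequal amounts.

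**Figure D3:**
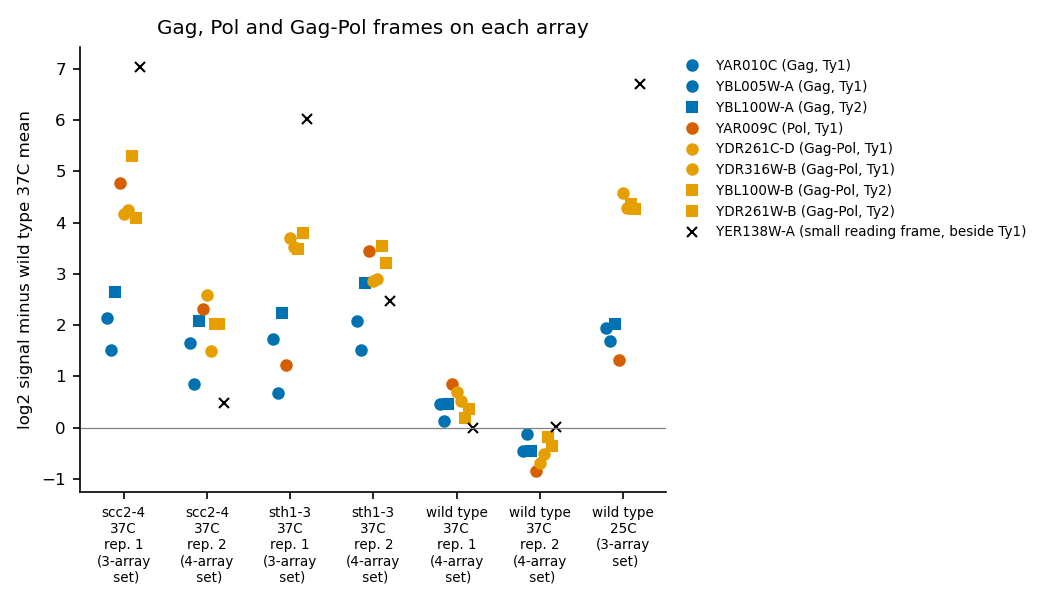
Points give the log2 signal of each probe set minus its mean on the wild type 37C arrays, array by array. Blue marks Gag frames, orange-red the Pol frame YAR009C, yellow Gag-Pol frames and black crosses YER138W-A. Circles are Ty1 and squares Ty2. Blue points stay between 0.67 and 2.81 on the 5 arrays other than wild type 37C, whereas the crosses reach 7.03 on scc2-4 replicate 1 and 0.47 on scc2-4 replicate 2.

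Gag-Pol frames of both families lay above the wild type 37C mean on the mutant arrays of the 4-array set. On scc2-4 replicate 2 the Gag-Pol frames of Ty1 lay 2.59 (YDR261C-D) and 1.49 (YDR316W-B) above the wild type 37C mean, and those of Ty2 lay 2.03 (YBL100W-B) and 2.03 (YDR261W-B) above it. On sth1-3 replicate 2 the values were 2.85 (YDR261C-D) and 2.90 (YDR316W-B) for Ty1 and 3.54 (YBL100W-B) and 3.20 (YDR261W-B) for Ty2. On sth1-3 replicate 1, of the 3-array set, they were 3.70 (YDR261C-D) and 3.52 (YDR316W-B) for Ty1 and 3.47 (YBL100W-B) and 3.79 (YDR261W-B) for Ty2. Since all 4 frames were below background on both wild type 37C arrays, no order of the families is read from these differences. With 2 shared probe sets per family, no test of the families was made.

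The direct comparison of sth1-3 with scc2-4 was not used to pick the frames and was tested in the fit over all genes. None of the 9 frames was called, and limma called 0% of all genes (21 at an unadjusted p under 0.05, 0 called with a trend). With the array set as a term, limma gave 227 genes at an unadjusted p under 0.05 and called 0. The intervals below come from the main fit without that term, so gaps between the array sets enter their spread. The differences of sth1-3 minus scc2-4 ran from -1.20 for YAR009C to 0.49 for YER138W-A. For YAR010C the difference was 0.00 with a 95% interval of -0.92 to 0.93, and for YBL100W-A 0.16 with an interval of -0.82 to 1.14 (adjusted p = 1.00 for each, limma). For the Gag-Pol frames the intervals were wider, for example -0.999 to 1.89 around 0.45 for YDR261W-B and -2.13 to 1.82 around -0.15 for YBL100W-B. For YAR009C the interval was -3.42 to 1.01. A level 1 log2 unit higher in sth1-3 lies inside the interval of each Gag-Pol and Pol frame, and these data do not show that the mutants act alike.

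The sign of that difference turned with the array set in every frame. In the 4-array set sth1-3 exceeded scc2-4 in 8 of 8 Ty frames, by 0.26 (YDR261C-D) to 1.51 (YBL100W-B). In the 3-array set sth1-3 lay below scc2-4 in 8 of 8, with differences of -0.29 (YDR261W-B) to -3.54 (YAR009C). YER138W-A did the same, with 1.99 within the 4-array set but -1.01 within the 3-array set. This crossing was shown by 21.6% of all genes. Each difference sets 1 array against 1, and the frames share RNAs, so the 8 agreeing signs are not 8 independent observations.

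**Figure D4:**
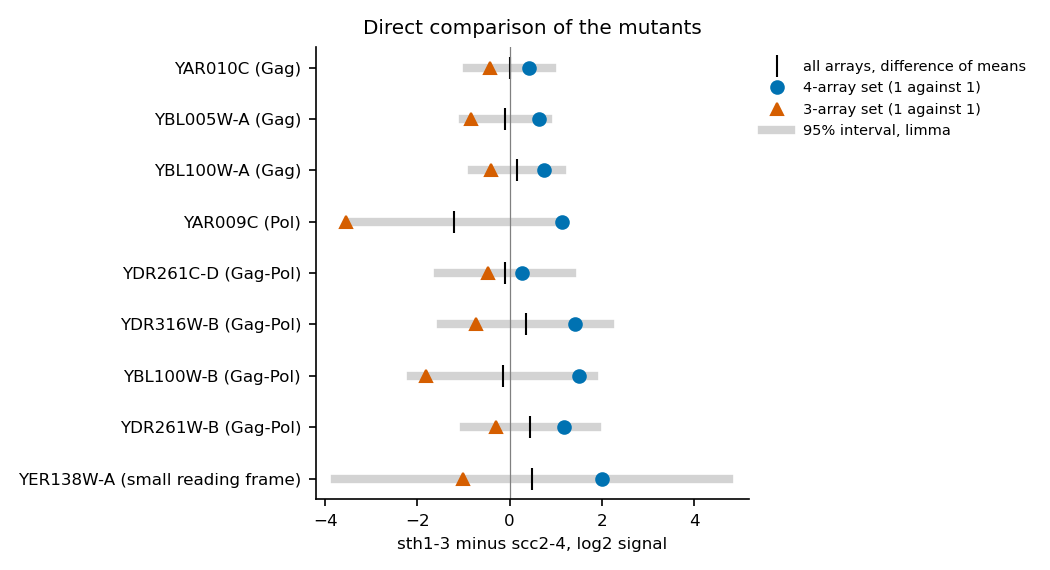
The x axis gives sth1-3 minus scc2-4 in log2 signal for each probe set. Black ticks are differences of group means over all arrays with limma's 95% intervals in grey, blue circles the difference within the 4-array set and orange triangles that within the 3-array set (1 array against 1). All circles lie above 0 and all triangles below it, with the widest split in YAR009C, at 1.14 and -3.54.

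The arrays also covered 5 frames of Ty3 and Ty4, retrotransposons of other families, and limma called none of them in any of the 4 comparisons (lowest adjusted p = 0.449). At an unadjusted p under 0.05 there was 1 in sth1-3 against wild type at 37C and 1 in wild type at 37C against 25C, in both cases YIL082W-A (differences of -0.82 and 1.06), and 0 in the other comparisons, and eBayes with a trend also called 0. Of all 5449 genes, 206 and 555 were under that p in these comparisons. By group means all 5 Ty3 and Ty4 frames were lower in scc2-4 than in wild type at 37C, with differences of -0.36 to -0.15. Those means join 1 scc2-4 array of each array set. On scc2-4 replicate 2, of the 4-array set, YGR109W-A (10.05) and YGR109W-B (7.69) lay above their wild type 37C means (9.97 and 7.33). The other frames lay below theirs on that array. In sth1-3 the differences of the 5 frames ranged from -0.82 to 0.48. Only YGR109W-A, a Gag frame of Ty3, passed background on any array. It measured 9.44 and 10.05 in scc2-4, 9.42 and 9.89 in sth1-3, 9.89 and 10.06 in 37C wild type and 10.01 in 25C wild type. YGR109W-B and YIL082W-A of Ty3 and YHL009W-A and YHL009W-B of Ty4 were not above background on any array, so their differences, those of YIL082W-A included, are between signals at background level.

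Host factors known to act on Ty elements were examined as 5 lists of 15 to 19 genes. Each mutant mean given for them joins 1 array of each array set, while wild type at 37C belongs to the 4-array set alone. Gaps between the array sets therefore enter these means and their SD. Limma called no member of any list in any of the 4 comparisons (lowest adjusted p = 0.449, in wild type at 37C against 25C), nor did eBayes with a trend. Of the 85 members, 1 had an unadjusted p under 0.05 in scc2-4 against wild type at 37C, 5 in sth1-3 against wild type at 37C, 0 in sth1-3 against scc2-4 and 7 in wild type at 37C against 25C. Of all 5449 genes, 68, 206, 21 and 555 did so in the same order. Activators of Ty transcription, which include SAGA and SWI/SNF subunits and the DNA-binding factors Tec1, Ste12, Mcm1 and Gcr1, had a median difference from wild type at 37C of -0.23 in scc2-4 (9 of 19 higher) and -0.25 in sth1-3 (6 of 19 higher), beside -0.01 and 0.03 for all genes. Of the 19, 12 were not above background on any array. MCM1, whose product binds next to Ste12 at many promoters, measured 10.68 ± 0.45 in scc2-4, 10.97 ± 0.14 in sth1-3 and 11.30 ± 0.30 in 37C wild type (SD, n = 2 each). SPT20, a SAGA subunit, measured 10.06 ± 0.29, 10.24 ± 0.00 and 10.50 ± 0.36 in the same groups. GCN4, the activator of amino acid synthesis genes, measured 10.17 ± 0.41, 10.34 ± 0.52 and 9.92 ± 0.27.

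Histone chaperones and elongation factors, several of them SPT genes, had a median difference of 0.24 in scc2-4 (12 of 16 higher) and 0.13 in sth1-3 (9 of 16 higher), and 12 were never above background. ASF1, a chaperone of histones H3 and H4, measured 10.55 ± 0.02 in scc2-4, 10.03 ± 0.24 in sth1-3 and 10.51 ± 0.08 in 37C wild type. SPT10, an activator of histone genes, measured 10.13 ± 0.57, 9.41 ± 0.47 and 10.45 ± 0.18 in the same groups. CAC2, a subunit of chromatin assembly factor 1, measured 10.19 ± 0.25, 10.25 ± 0.53 and 9.93 ± 0.03. Its sth1-3 arrays gave 10.62 (replicate 1) and 9.87 (replicate 2), beside 9.95 and 9.91 in 37C wild type.

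Factors of RNA decay and of Ty ribonucleoprotein had medians of -0.08 in scc2-4 (5 of 15 higher) and -0.07 in sth1-3 (6 of 15 higher). DHH1, a helicase of messenger decay, measured 10.25 ± 0.17 in scc2-4, 9.96 ± 0.36 in sth1-3 and 10.37 ± 0.14 in 37C wild type. SRO9, an RNA-binding protein, measured 10.55 ± 0.01, 10.71 ± 0.15 and 10.24 ± 0.37 in the same groups, and BUD22, a ribosome biogenesis factor that Ty1 needs, 10.25 ± 0.02, 10.52 ± 0.33 and 10.14 ± 0.36. Genome caretakers that limit transposition (medians of -0.007 in scc2-4 and -0.004 in sth1-3) had 16 of 17 members never above background, and the RNA polymerase III list with partners of integration (0.08 and 0.18) had 17 of 18. RAD6, a ubiquitin-conjugating enzyme, was the caretaker above background, on 1 wild type 37C array. BRF1, a TFIIIB subunit, was the gene of the RNA polymerase III list above background, on the wild type 25C array. The other brightest members of these lists, RTT105, RTT106, RPO31 and TFC7, were not above background on any array.

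Among 895 other genes above background on at least 2 arrays, those most like the mean of the 9 frames were SED1 (Pearson r = 0.99 over 7 arrays), SOD2 (0.98), YDR034C-A (0.96), KRE6 (0.96) and MCM4 (0.96). These values describe 7 arrays that fall into sets, so they also rank how far a gene follows the sets. SED1, a cell wall protein, measured 11.66 and 10.72 in scc2-4, 11.22 and 11.19 in sth1-3, 10.17 and 10.09 in 37C wild type and 11.44 in 25C wild type. It thus had the wild type 37C arrays lowest, as the Ty frames do. All SED1 values of the 3-array set also lay above all of the 4-array set, with means of 11.44 and 10.54. YDR034C-A lies between tRNA genes in the R64 order and measured 11.71 and 8.64 in scc2-4, 10.75 and 9.65 in sth1-3, 8.37 and 7.36 in 37C wild type and 11.17 in 25C wild type.

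The genes most like YER138W-A were of another kind. YEF3, a translation elongation factor, the ribosomal protein genes RPS30A, RPL3 and RPS11B, and ERV25 of vesicle transport headed the list, with r of 0.996 to 0.998 over the 7 arrays. YEF3 averaged 10.83 over the 3-array set but 8.10 over the 4-array set, and RPS30A 11.36 and 7.93. The r between YER138W-A and the Ty frames was lower, from 0.47 for YAR009C to 0.93 for YDR316W-B. Between the Ty frames r ran from 0.66, for YAR009C with YDR261C-D, to 0.99, for YDR261W-B with YDR316W-B.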

How the data were processed

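Total RNA was amplified to double-stranded cDNA and hybridised to Yeast Genome 2.0 arrays, per the labels' protocols. The deposited values are log2 intensities, made with RMA and the affy package, per the submitters' processing notes, and lay between 4.97 and 14.7. Whether all arrays were normalized together is not given in the sources used here. Groups come from sample titles. For the wild type 25C sample the title, source name and description give 25C, while its protocol text speaks of 37C.

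The platform annotation gave 1 symbol to 7244 of the 10928 probe sets, several to 1, and none to 3683. S. cerevisiae genes (5498 probe sets, 5449 genes) were told from S. pombe (1746) through the R64 gene table. The brightest probe set represented a gene. Limma 3.58.1 (lmFit and eBayes, R 4.3.3) was fitted to all 7 arrays with a mean per group, two-sided, with Benjamini-Hochberg adjustment over 5449 genes at 0.05, and tested on simulated data. Array sets were split at the widest gap in the mean of 27 hybridisation control probe sets. No pair of arrays was identical. Precision is limited by the number of arrays and by gaps between the array sets, which enter the spread of the main fit.

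The frames, the host factor lists and the alternatives were chosen with earlier results of these data known. The rule for named genes took all listed frames, all Ty3 and Ty4 frames, the 3 brightest and any called members of each list, and the 5 genes most like the frames. Of 11 Ty3, Ty4 and Ty5 frames listed, 5 were measured. Roles and families of the frames are background knowledge. Alternatives were a replicate block, the array set as a term, the 4-array set alone, only the groups compared, eBayes options, a filter on dim genes, 3 normalizations, the mean of probe sets, and leaving out each replicate at 37C.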

Additional observations from a re-analysis of the deposited data

How the results depend on the processing

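Of 17 alternatives run against wild type at 37C, 9 moved the differences of the 8 Ty frames and 8 left them equal by construction. Over the 9, the differences ran from 0.86 to 5.29 in scc2-4 and from 0.67 to 3.97 in sth1-3. In wild type at 37C against 25C, 6 of 15 alternatives moved them, to values of -5.27 to -0.46. The frames were picked from these contrasts, so their sign is no sign of stability. The difference of sth1-3 minus scc2-4 had no stable sign. With only the 4-array set, where the spread of the wild type pair stands in for the lone mutant arrays, its median over the 9 frames was 1.14, and it was 1.14 for YAR009C, 0.65 for YBL005W-A, 1.51 for YBL100W-B and 0.26 for YDR261C-D. For YAR010C it was -0.028 with S. cerevisiae medians set equal and -0.040 with S. pombe medians set equal. Leaving out 1 array at a time gave -2.43 to 0.027 for YAR009C, -0.24 to 0.25 for YAR010C, -0.51 to 0.32 for YBL005W-A, -0.13 to 0.45 for YBL100W-A, -1.79 to 1.48 for YBL100W-B, -0.90 to 0.68 for YDR261C-D, -0.58 to 1.47 for YDR261W-B, -1.03 to 1.72 for YDR316W-B and -2.79 to 3.77 for YER138W-A. Leaving out an array that way unbalances the array sets. The median of the 9 frames in sth1-3 against wild type at 37C was 2.37 with the array set as a term and 2.58 to 3.69 with 1 array left out. In wild type at 37C against 25C it was -2.04 with the array set as a term.

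Counts of called genes changed with the model and the arrays used, and the cause was not tested. For scc2-4 against wild type at 37C a count of 0 became 7 with the array set as a term, 6 with only the 4-array set, 1 with the replicate block and 0 to 1 with 1 array left out. In sth1-3 against wild type at 37C it became 10 with the array set as a term, 13 with only the 4-array set and 1 with the replicate block. In sth1-3 against scc2-4 it became 1 with only the 4-array set, and that gene was none of the 9 frames. In wild type at 37C against 25C it became 4 with the array set as a term, 911 with only the groups compared and 0 to 1 with 1 array left out. Most genes called in the mutants against wild type at 37C were among the 9 frames. With the array set as a term these were 7 of 7 in scc2-4 and 8 of 10 in sth1-3. In wild type at 37C against 25C the calls with that term were all frames, while most of the 911 were not. The frames were picked from these contrasts, so their calls support nothing. Replicate numbers match the array sets in both mutants, while both wild type 37C arrays belong to the 4-array set. Deviations from the group means, taken for the same replicate number, correlated across genes at 0.55 between sth1-3 and scc2-4. They correlated at -0.36 between sth1-3 and wild type and at -0.20 between scc2-4 and wild type. Signal over background limits most folds to bounds. The number of arrays limits every interval, and so does the main fit, which has no term for the array set.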

Other observations

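Of 3470 probe sets without a gene name here, controls left out, 0 had the sth1-3 and scc2-4 arrays of the 4-array set more than 1 log2 unit above both wild type 37C arrays. Among the 5449 named S. cerevisiae genes 6 did, and all 6 were frames of Ty1 or Ty2: YAR009C, YAR010C, YBL100W-A, YBL100W-B, YDR261C-D and YDR261W-B. The frames were picked from these same contrasts, so the count is a description of these 4 arrays. YDR316W-B missed it on scc2-4 replicate 2 (9.23, against 8.25 on wild type 37C replicate 1), and YBL005W-A on the same array (9.37, against 8.64).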
